A study of Mus musculus with 6 samples.

Results

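The 7 markers of fetal-like, regenerating and revival intestinal epithelium, Ly6a, Clu, Anxa1, Anxa3, S100a6, Il1rn and Msln, were followed in stem cell-enriched mouse organoids given retinoic acid. They were taken by symbol from a table of 21534 rows, in which each of the 7 had 1 row. All 7 passed the filter on low counts and were tested among 13700 rows. With retinoic acid the markers moved in opposite directions: Il1rn, Ly6a and Clu rose, S100a6 and Anxa1 fell, and Anxa3 and Msln were not called.

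The samples were 3 retinoic acid and 3 vehicle libraries. Retinoic acid libraries came from organoids given 10 µM retinoic acid, which cells make from vitamin A, for 24 hours, and vehicle libraries from organoids given DMSO for the same time. Both groups were WT C57Bl/6 ileal organoids, cultures of epithelium alone, which had first spent 96 hours with 10 µM CHIR99021. This compound blocks GSK3 and so raises Wnt signalling, and the vehicle organoids are not untreated epithelium. Whether the 3 libraries of a treatment stand for different mice or cultures, and the age of the mice, are not stated in the labels. The p-values therefore refer to the spread among these libraries, which may be technical.

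When adult intestinal epithelium is injured, surviving cells can re-enter a transient state that shares genes with the fetal gut and that depends on the transcriptional coactivator YAP. Ly6a and Clu are the best known marks of this state in mice: Clu labels rare revival stem cells that can rebuild the stem cell pool after injury, and Ly6a, also called Sca-1, labels repairing epithelium in the colon. Retinoid receptors have been linked in mouse organoids to the exit from this state.

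Total reads per library ran from 14919144 to 21833846. The response to retinoic acid was present in every treated library: Cyp26b1, which encodes an enzyme that breaks retinoic acid down, had 723 to 1052 CPM with retinoic acid and 0.405 to 1.36 CPM with vehicle, where CPM is the count per 1000000 reads after TMM scaling. Dhrs3, a retinaldehyde reductase, averaged 62.07 ± 11 CPM with retinoic acid and 14.1 ± 2.03 CPM with vehicle, and Isx, an intestinal transcription factor, averaged 660 ± 27.2 CPM with retinoic acid and 97.8 ± 28.8 CPM with vehicle (SD, n = 3 each). The labelled epithelial identity held in both groups: 12 epithelial genes summed to 14411 to 15426 CPM with retinoic acid and 14208 to 15120 CPM with vehicle (sums over lists are without TMM scaling). The fibroblast collagen gene Col1a1 had 14 reads over the retinoic acid libraries and 32 over the vehicle libraries. In all, 11 mesenchymal genes summed to 4.44 to 4.77 CPM with retinoic acid and 6.50 to 6.62 CPM with vehicle, without overlap. Of these, 2 were tested and not called. Pdgfrb averaged 2.75 CPM with retinoic acid and 4.11 CPM with vehicle, and Vim 1.18 CPM with retinoic acid and 0.818 CPM with vehicle. Among the epithelial genes Elf3 and Cldn3 were higher and Cdx1 was lower; Cdx1 lost its call without retinoic acid library 1 (adjusted p = 0.125 in edgeR), retinoic acid library 2 (0.122), vehicle library 2 (0.0795) or vehicle library 3 (0.107). The count of higher epithelial genes was 4 without retinoic acid library 3 or with DESeq2, 5 with library 3 of both groups left out or no filter on low counts, and 6 with a replicate block. On the second principal component both libraries numbered 3 stood apart from the rest, so results that rest on them are given with and without them. Of 13700 rows tested with edgeR's quasi-likelihood test, 9.46% were called at a Benjamini-Hochberg adjusted p under 0.05, 5.37% as higher with retinoic acid and 4.09% as lower. Against this background 5 of the 7 markers were called, 3 as higher and 2 as lower. The markers and all gene lists were chosen with earlier results of these data known. Shares set against this background are therefore descriptions, not tests. The libraries of both groups did not overlap for the same 5 markers, which held for 25.5% of all rows tested. These are bulk samples, in which fewer cells of a type and less RNA per cell cannot be told apart.

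**Figure D1:**
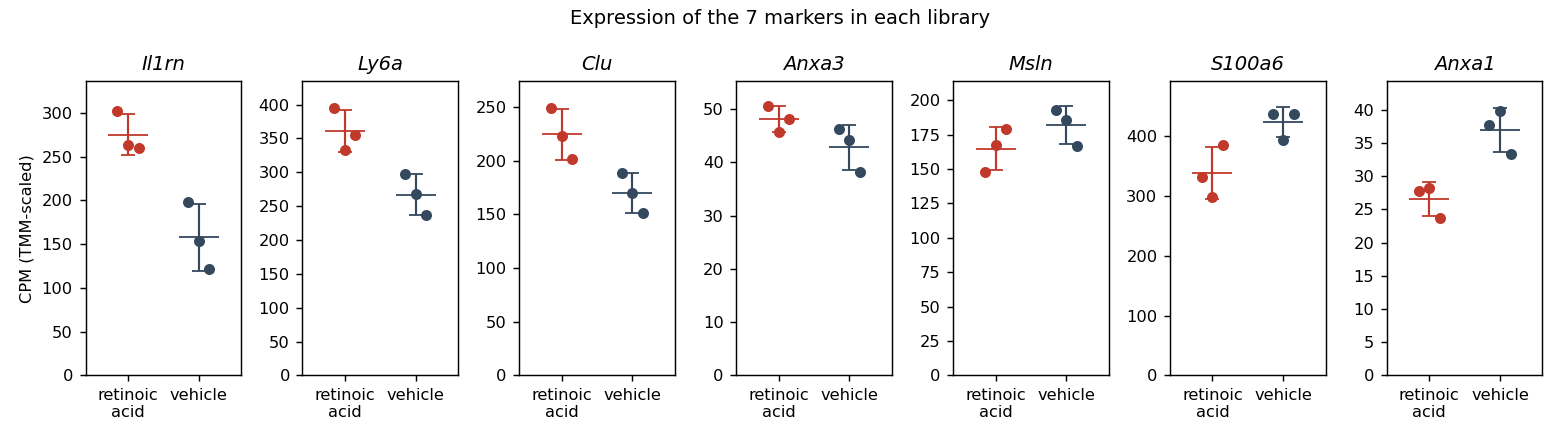
CPM of each marker (vertical axis, from 0) in the 3 retinoic acid libraries (red, left) and the 3 vehicle libraries (dark, right), in the order 1 to 3 within a group, with the mean as a bar and the SD as whiskers. Il1rn, Ly6a and Clu lay higher in all retinoic acid libraries than in any vehicle library, S100a6 and Anxa1 lay lower, and Anxa3 and Msln overlapped.

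Il1rn showed the largest change among the 7. It encodes the interleukin 1 receptor antagonist, which occupies the interleukin 1 receptor without signalling (ENSMUSG00000026981, mm10 chromosome 2, 24336853 to 24351494, plus strand). Its level was 302, 263 and 260 CPM in retinoic acid libraries 1, 2 and 3, against 198, 154 and 122 CPM in vehicle libraries 1, 2 and 3. Every retinoic acid library lay above every vehicle library, and the vehicle libraries were the more scattered, with a coefficient of variation of 8.61% with retinoic acid and 24.2% with vehicle. The fold change was 1.74, with a log2 fold change of 0.80 (SE 0.13, 95% interval 0.53 to 1.07, adjusted p = 0.000966 in edgeR). This exceeded the absolute log2 fold change of 96.6% of all rows tested.

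Il1rn has alternative starts, and the gene-level counts do not separate them. In human, the upstream start gives an intracellular form made in epithelia and the downstream one the secreted form. The sequences below are the RefSeq windows (GRCm38.p6, plus strand) from 250 to 13 bases before 2 of these starts, shown because Il1rn changed most among the 7. Capitals mark matches to the letters AGGTCA (the half-site bound by retinoid and other nuclear receptors, read here on the opposite strand) and TGANTCA (the AP-1 site).
Il1rn upstream start, chr2:24336610-24336847: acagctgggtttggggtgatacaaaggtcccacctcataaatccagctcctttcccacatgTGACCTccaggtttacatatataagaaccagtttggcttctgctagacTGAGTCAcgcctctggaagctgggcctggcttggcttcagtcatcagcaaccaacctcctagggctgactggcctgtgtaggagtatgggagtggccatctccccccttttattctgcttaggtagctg
Il1rn downstream start, chr2:24345041-24345278: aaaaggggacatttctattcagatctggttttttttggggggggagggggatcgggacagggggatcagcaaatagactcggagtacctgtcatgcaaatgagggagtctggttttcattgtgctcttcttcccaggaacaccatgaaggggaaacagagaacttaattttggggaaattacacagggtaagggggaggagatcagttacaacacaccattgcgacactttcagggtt
The upstream window held 1 half-site and 1 AP-1 site, and the downstream window held neither. Over 32817 RefSeq promoter windows of the same length, 13.5% held the half-site and 6.54% the AP-1 site on either strand. Exact pairs of AGGTCA in the same direction with 2 or 5 bases between them, the classic spacings of retinoic acid receptor sites, were in neither window. Each kind was in 0.00914% of all windows. A search for these exact letters was thus almost sure to find none. It does not show that a window lacks a receptor site.

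The other genes of the interleukin 1 system were not called. Of 15 tested genes of ligands, receptors and signalling partners, none was called by edgeR, DESeq2 or limma-voom, 2 had an unadjusted p under 0.05 in edgeR, and the median log2 fold change was 0.03, against −0.01 over all rows tested. The agonist gene Il1a had 1.42 CPM with retinoic acid and 0.838 CPM with vehicle on average, and Il1b had 1 read in all in each group, which was too few to test. Without retinoic acid library 3, or without library 3 of both groups, 1 gene of the list was lower. The receptor gene Il1r1 averaged 0.613 CPM with retinoic acid and 1.13 CPM with vehicle (adjusted p = 0.274 in edgeR), and the receptor partner Il1rap 8.82 CPM with retinoic acid and 8.60 CPM with vehicle. The alarm cytokine gene Il33, also used as a mark of injured epithelium, averaged 6.99 ± 0.962 CPM with retinoic acid and 4.66 ± 1.22 CPM with vehicle (SD, n = 3 each; adjusted p = 0.0995 in edgeR).

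Ly6a encodes a small GPI-anchored surface protein (ENSMUSG00000075602, mm10 chromosome 15, 74994878 to 74997634, minus strand). It had 395, 333 and 356 CPM in the retinoic acid libraries, against 296.8, 267.3 and 237.6 CPM in the vehicle libraries. All 3 treated libraries lay above all 3 vehicle libraries, by 1.35-fold on average (log2 fold change 0.43, SE 0.08, 95% interval 0.26 to 0.61, adjusted p = 0.00337 in edgeR). Per kilobase of exon, Ly6a was already among the highest expressed genes with vehicle, at 222 ± 24.6 CPM per kilobase, above 98.6% of rows tested that have a length, and it stood at 300 ± 26.1 CPM per kilobase with retinoic acid (SD, n = 3 each).

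Of 12 other tested genes with a Ly6 domain, 2 were higher (16.7%, against 5.37% of all rows) and 1 lower (8.33%, against 4.09%). Their median log2 fold change was 0.23, against −0.01 over all rows. Ly6e had 283 CPM with retinoic acid and 259 CPM with vehicle on average and was not called (adjusted p = 0.267 in edgeR), and Ly6c1 had 11.15 CPM with retinoic acid and 10.04 CPM with vehicle (adjusted p = 0.732). The genes called were Lypd8, a secreted protein that keeps bacteria off the colonic epithelium (1782 CPM with retinoic acid, 608 CPM with vehicle, 2.93-fold), Ly6g, a neutrophil antigen (8.13 CPM with retinoic acid, 2.54 CPM with vehicle, 3.17-fold), and Lypd6b, which was lower (1.61 CPM with retinoic acid, 5.24 CPM with vehicle). Without vehicle library 3, or without library 3 of both groups, there were 2 lower genes. Ly6 genes are close copies of each other, and how reads matching several of them were counted is not given in the sources used here, so the split of reads among them is uncertain.

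Ly6a is also an interferon-induced gene and a surface mark of endothelial and blood stem cells. Of 29 tested interferon response genes 3 were higher and none lower, a share of 10.3% against 5.37% of all rows, with a median log2 fold change of 0.16. They were Oasl1 (158 CPM with retinoic acid, 69.1 CPM with vehicle), Irf1, a transcription factor (126 CPM with retinoic acid, 92.0 CPM with vehicle), and Oasl2 (10.1 CPM with retinoic acid, 5.81 CPM with vehicle). The count was 5 without retinoic acid library 3 or without library 3 of both groups, and Oasl2 lost its call without vehicle library 1 (adjusted p = 0.0813) or vehicle library 3 (0.0503). The summed level of the list was 987 to 1026 CPM with retinoic acid and 833 to 924 CPM with vehicle, without overlap, and its part in the rise of Ly6a was not tested.

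Clu encodes clusterin, a secreted chaperone (ENSMUSG00000022037, mm10 chromosome 14, 65968483 to 65981548, plus strand). It had 249, 223 and 202 CPM in the retinoic acid libraries, against 188, 170 and 151 CPM in the vehicle libraries. The groups did not overlap, although the lowest treated library exceeded the highest vehicle library by little. The fold change was 1.32 (log2 fold change 0.40, SE 0.09, 95% interval 0.22 to 0.59, adjusted p = 0.00789 in edgeR). Without retinoic acid library 1, the highest of all, the log2 fold change was 0.33 and the call was lost (adjusted p = 0.0512).

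S100a6 encodes calcyclin, a calcium-binding protein of the S100 family (ENSMUSG00000001025, mm10 chromosome 3, 90612894 to 90614414, plus strand). It had 333, 299 and 385 CPM in the retinoic acid libraries, against 438, 394 and 437 CPM in the vehicle libraries. Retinoic acid library 3 came close to vehicle library 2, but no treated library reached a vehicle library. The log2 fold change was −0.32 (SE 0.08, 95% interval −0.49 to −0.15, adjusted p = 0.0224 in edgeR). This call was the least stable of the 5: it was lost without retinoic acid library 1 (adjusted p = 0.0915), retinoic acid library 2 (0.106), vehicle library 1 (0.0977) or vehicle library 3 (0.0693). With library 3 of both groups left out it held. Per kilobase of exon S100a6 was the most abundant of the 7 in both groups, at 419 ± 53.7 CPM per kilobase with retinoic acid and 523 ± 31.1 CPM per kilobase with vehicle (SD, n = 3 each).

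The window from 250 to 13 bases before the start of S100a6 (RefSeq, GRCm38.p6, plus strand) is given for comparison with the windows of Il1rn, since these genes moved in opposite directions. It held no match to the half-site, the AP-1 site, CATTCC (the core bound by TEAD factors, the DNA-binding partners of YAP) or TTCNNNGAA (the site of STAT factors), so it is all in lower case.
S100a6 start, chr3:90612644-90612881: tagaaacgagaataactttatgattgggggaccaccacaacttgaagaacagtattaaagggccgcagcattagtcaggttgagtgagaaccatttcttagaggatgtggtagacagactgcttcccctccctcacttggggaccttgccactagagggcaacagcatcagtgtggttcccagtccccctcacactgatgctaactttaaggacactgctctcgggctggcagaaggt
Of all windows of this length, 12.1% held CATTCC and 6.7% TTCNNNGAA on either strand. Windows before a further start of Il1rn and before the start of Anxa1, which overlap annotated exons and are not printed, held 1 match to CATTCC each. RefSeq windows were used for these 3 of the 7 markers.

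Of 8 other S100 genes tested, 1 was higher (12.5%, against 5.37% of all rows) and none lower in edgeR, and DESeq2 and limma-voom also called 1 each; 2 had an unadjusted p under 0.05. The higher one was S100a16 (107 CPM with retinoic acid, 90.7 CPM with vehicle, adjusted p = 0.0437 in edgeR), whose call was lost without any 1 of the libraries except retinoic acid library 2 (adjusted p up to 0.208), and also without library 3 of both groups. The lower count was 1 without vehicle library 3, without library 3 of both groups or with no filter on low counts. S100g, an intestinal calcium-binding protein, had 104.8, 98.77 and 99.4 CPM in the retinoic acid libraries, against 126.2, 172.3 and 91.35 CPM in the vehicle libraries, which overlapped them, and was not called (log2 fold change −0.36, adjusted p = 0.175 in edgeR). S100a10 and S100a11, often listed beside S100a6 in injured epithelium, had log2 fold changes of 0.02 (SE 0.05 for S100a10 and 0.06 for S100a11).

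Anxa1 encodes annexin A1, a calcium-dependent membrane-binding protein that limits inflammation and favours epithelial repair (ENSMUSG00000024659, mm10 chromosome 19, 20373428 to 20390944, minus strand). It had 27.8, 28.2 and 23.7 CPM in the retinoic acid libraries, against 37.7, 39.7 and 33.3 CPM in the vehicle libraries. Library 3 was the lowest of both groups, and all treated libraries lay below all vehicle libraries. The log2 fold change was −0.48 (SE 0.10, 95% interval −0.69 to −0.27, adjusted p = 0.00605 in edgeR), the largest decrease among the 7. It kept its call with any 1 library left out (adjusted p up to 0.0423). A noncoding gene on the opposite strand, 1500015L24Rik, overlaps it; whether counting used strand is not given in the sources used here.

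Anxa3 encodes another member of the annexin family (ENSMUSG00000029484, mm10 chromosome 5, 96793385 to 96845968, plus strand). It had 50.6, 45.8 and 48.1 CPM in the retinoic acid libraries, against 46.3, 44.2 and 38.2 CPM in the vehicle libraries. Vehicle library 1 lay above retinoic acid library 2, so the groups overlapped. The log2 fold change was 0.17 (SE 0.09) and was not called (adjusted p = 0.29 in edgeR), with a 95% interval of −0.02 to 0.35. Its annotated span overlaps that of Gm42603 on the same strand, so reads there could belong to either.

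Among the other 10 annexin genes, all of them tested, 1 was lower (10%, against 4.09% of all rows) and none higher, with a median log2 fold change of −0.04. DESeq2 and limma-voom called 1 each as well, 3 had an unadjusted p under 0.05 in edgeR, and 1 was higher without retinoic acid library 3. The lower one was Anxa8, a mark of fetal and metaplastic epithelium (16.5, 13.8 and 12.4 CPM in the retinoic acid libraries, against 24.0, 23.9 and 21.3 CPM in the vehicle libraries; log2 fold change −0.70, SE 0.12, adjusted p = 0.00185 in edgeR). Anxa2, another gene of the regenerating state, had 303 CPM with retinoic acid and 302 CPM with vehicle. Anxa5 averaged 37.8 CPM with retinoic acid and 30.8 CPM with vehicle and was not called (adjusted p = 0.114).

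Msln encodes the precursor of mesothelin, a GPI-anchored protein of the lining of body cavities that also appears in fetal-like epithelium (ENSMUSG00000063011, mm10 chromosome 17, 25748614 to 25754327, minus strand). It had 148, 168 and 179 CPM in the retinoic acid libraries, against 193, 186 and 167 CPM in the vehicle libraries. The groups overlapped only through vehicle library 3, the lowest with vehicle, which lay below retinoic acid libraries 2 and 3. Retinoic acid library 3 was the highest with retinoic acid but lay below vehicle libraries 1 and 2. The log2 fold change was −0.14 (SE 0.08, 95% interval −0.31 to 0.02) and was not called (adjusted p = 0.314 in edgeR). With library 3 of both groups left out it was −0.27 and was called (adjusted p = 0.0127).

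**Figure D2:**
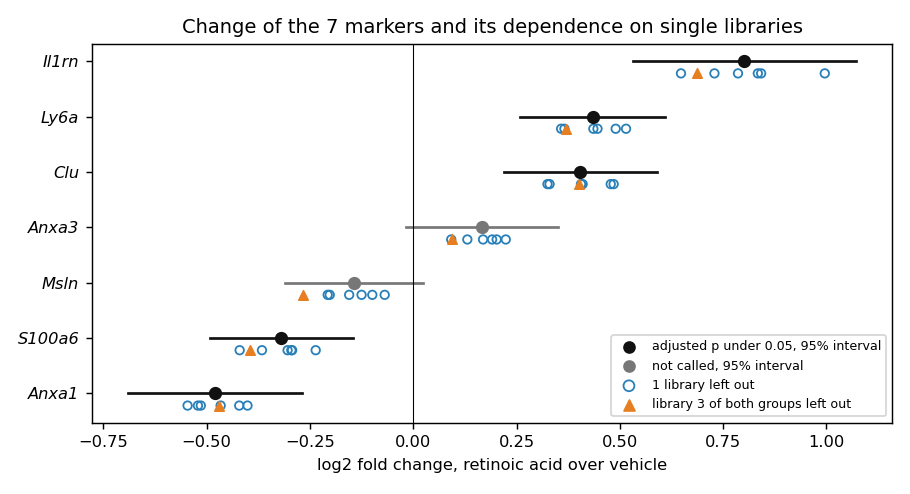
Log2 fold change of each marker, retinoic acid over vehicle (horizontal axis), with its 95% interval (black where called, grey where not), above the values with 1 library left out (open circles) and with library 3 of both groups left out (triangles). No marker changed its sign with any library left out, and the values for Il1rn ranged from 0.65 to 1.00.

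Set on one scale of CPM per kilobase of exon, the order of the mean levels with retinoic acid was S100a6 (419), Ly6a (300), Il1rn (102), Clu (87.2), Msln (75.7), Anxa3 (17.3) and Anxa1 (14). With vehicle it was S100a6 (523), Ly6a (222), Msln (83.5), Clu (65.8), Il1rn (58.3), Anxa1 (19.5) and Anxa3 (15.4). Il1rn thus stood above Msln with retinoic acid and below it with vehicle, and Anxa3 above Anxa1 with retinoic acid and below it with vehicle. The vehicle levels of Clu and Il1rn differed by less than the SD of Il1rn (14.1 CPM per kilobase), and a level per kilobase depends on which exons are used. Summed over the 7 genes, without length, the level was 1330 to 1470 reads per 1000000 reads of the table in the retinoic acid libraries and 1208 to 1429 in the vehicle libraries, so the groups overlapped in the sum.

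Within each group, Il1rn, Ly6a, Clu and Anxa3 were highest in library 1, whichever the treatment. After the mean of each group was subtracted, the log2 CPM of these 4 genes correlated pairwise with r between 0.78 and 0.95 over the 6 libraries, as a description only, since genes in a library share its depth and preparation. In the same measure Anxa1 followed Clu (r = 0.755) and, less closely, Il1rn, Anxa3 and Ly6a (r = 0.548, 0.502 and 0.4). S100a6 went against Anxa1 (r = −0.83), and Msln followed none of the others closely (r between −0.10 and 0.33).

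**Figure D3:**
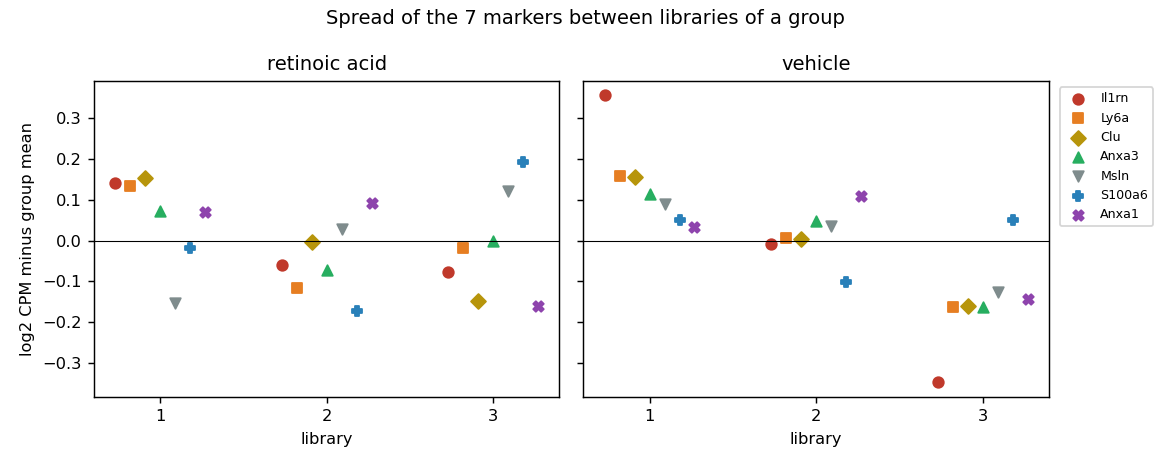
Log2 CPM of each marker minus the mean of its group (vertical axis) in libraries 1, 2 and 3 of the retinoic acid group (left) and the vehicle group (right). Il1rn in the vehicle group spanned 0.36 to −0.35, wider than any other marker, and Msln in library 3 was at 0.12 with retinoic acid and −0.13 with vehicle.

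Over the 6 libraries, with the treatment difference included, the genes whose log2 CPM was most like that of a marker were sought among 10295 named genes that averaged 5 CPM or more, by Pearson's r. For Il1rn they included Arpc3 and Tlr3 (r = 0.995 and 0.993). For Ly6a they were Ildr1, Ikbkg and Slfn4, and for Clu Rcan3, Tpm3 and Ppp1cb. For Anxa1 they were Naip5, Mut and H2afz, for S100a6 Tsc22d3, Snx12 and Ywhab, and for Anxa3 Asah1, Il33 and Irak1, each with an r of 0.99 to 1.00. For Msln they were Arl16, Casd1 and Tmem35b, with the lowest likeness (r = 0.98, 0.98 and 0.97). These names are a description, since all values come from the same 6 libraries and share their depth.

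Other genes used to recognise the fetal and regenerating state were mostly in place and mostly not called. Of 45 genes listed beside the 7 markers, 41 were tested, 8 were higher (19.5% of those tested, against 5.37% of all rows) and 2 lower (4.88%, against 4.09%), and 31 were not called. The list was chosen with earlier results of these data known, so these shares are descriptions only. The median log2 fold change was 0.03, against −0.01 over all rows. The 8 higher genes kept their calls with any 1 library left out. Without retinoic acid library 2 there was 1 lower gene, and with library 3 of both groups left out there were 4.

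The higher genes included secreted growth factors and surface proteins of wounded epithelium. Sprr1a, a cornified envelope protein induced in injured gut, had 449, 459 and 384 CPM in the retinoic acid libraries, against 141, 146 and 138 CPM in the vehicle libraries (log2 fold change 1.61, SE 0.07, adjusted p = 3.72e-09 in edgeR). Plaur, the receptor of urokinase, averaged 133 ± 6.76 CPM with retinoic acid and 57.2 ± 3.01 CPM with vehicle (SD, n = 3 each; 2.32-fold). The EGF receptor ligands Hbegf, Areg and Ereg rose 2.06-fold, 1.57-fold and 1.45-fold. Areg had 682, 661 and 642 CPM in the retinoic acid libraries, against 438, 426 and 404 CPM in the vehicle libraries. The collagen-binding integrin gene Itga2 rose 1.88-fold, the tight junction gene Cldn4 1.33-fold and Phlda1, which is also a stem cell mark, 1.26-fold. Besides Anxa8, the lower gene was Marcksl1, an actin-binding protein (log2 fold change −0.28, SE 0.06), which lost its call without retinoic acid library 2 (adjusted p = 0.0524).

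Several marks of the fetal state were not called. Gja1, which encodes connexin 43, was near the limit of detection, with 0.653 ± 0.224 CPM with retinoic acid and 0.655 ± 0.287 CPM with vehicle (SD, n = 3 each). Spp1, the osteopontin gene, had 5 reads over the retinoic acid libraries and 7 over the vehicle libraries and was not tested. Cd44 and Krt7 were not called either (adjusted p = 0.999 and 0.371 in edgeR).

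**Figure D4:**
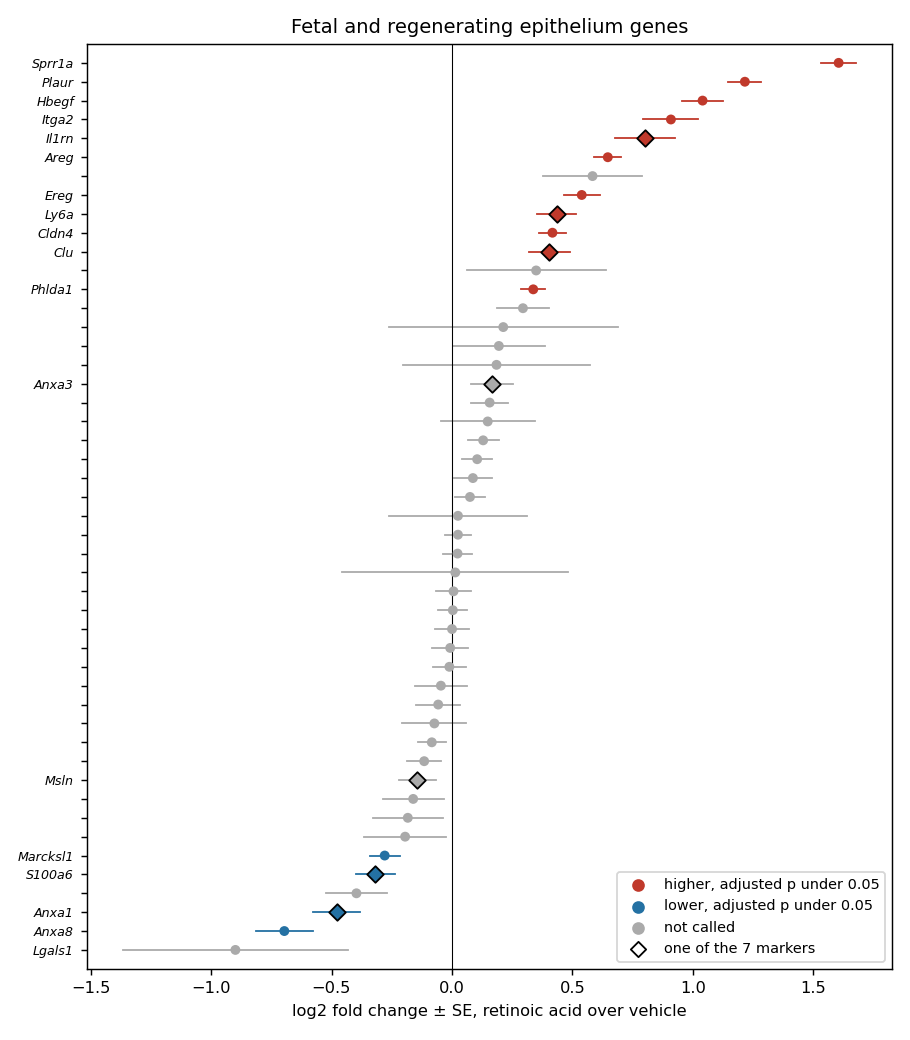
Log2 fold change, retinoic acid over vehicle, with its SE (horizontal axis) for the 41 tested fetal and regenerating genes (circles) and the 7 markers (diamonds), in order of the value; red marks called higher, blue called lower and grey not called. Names are given for the markers, the called genes and the lowest gene. The values run from 1.61 for Sprr1a to −0.90 for Lgals1, and most genes lie near 0.

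The fetal-like state is driven by YAP, and 19 target genes of YAP and its TEAD partners were tested. Of these 3 were higher (15.8%, against 5.37% of all rows) and 2 lower (10.5%, against 4.09%), with a median log2 fold change of −0.09, against −0.01 over all rows. Ccn2, a secreted matrix protein and a standard YAP target, had 40.6, 39.9 and 33.7 CPM in the retinoic acid libraries, against 20.1, 18.5 and 16.8 CPM in the vehicle libraries (2.06-fold, adjusted p = 1.51e-05 in edgeR). Its close relative Ccn1, another standard target, had 16.41, 22.1 and 15.97 CPM in the retinoic acid libraries, against 17.97, 20.14 and 15 CPM in the vehicle libraries, and was not called (adjusted p = 0.947). Gadd45b (1.51-fold) and Asap1 (1.40-fold) were higher, and Crim1 (log2 fold change −0.26) and Arhgef17 (−0.46) were lower. Asap1 lost its call without retinoic acid library 1 or 2 or vehicle library 1 or 3 (adjusted p up to 0.0961). DESeq2 called 1 lower gene. No lower gene was left without retinoic acid library 1 or 2 or vehicle library 2 or 3, and 1 was left without retinoic acid library 3 or vehicle library 1.

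In adult homeostasis the crypt base stem cell program stands opposite to the fetal-like one. Of 24 tested stem cell genes, 10 were lower (41.7%, against 4.09% of all rows). With any 1 library left out, 7 to 9 were lower. Only 1, Ephb2, was higher (4.17%, against 5.37% of all rows), with 2 higher without retinoic acid library 3 or without library 3 of both groups. This list too was chosen with earlier results of these data known. Lgr5, which marks these cells, had 79.1, 97.8 and 68.2 CPM in the retinoic acid libraries, against 127, 127 and 125 CPM in the vehicle libraries (log2 fold change −0.64, SE 0.10, adjusted p = 0.000933 in edgeR). Olfm4 averaged 26.99 ± 6.44 CPM with retinoic acid and 87.0 ± 18.1 CPM with vehicle (SD, n = 3 each), and Slc12a2 and Smoc2 had log2 fold changes of −0.82 and −0.63. Markers of other cells that make Ly6a or Msln ranged from near 0 to clearly detected. Of endothelial genes, Esam averaged 13.4 CPM with retinoic acid and 7.45 CPM with vehicle, while Cdh5 had 4 reads over the retinoic acid libraries and 1 over the vehicle libraries. Of immune genes, Cd14 averaged 47.7 CPM with retinoic acid and 35.6 CPM with vehicle, and Csf1r 20.8 CPM with retinoic acid and 21.1 CPM with vehicle. The pan-leukocyte gene Ptprc had 0 reads with retinoic acid and 2 with vehicle, and the mesothelial transcription factor gene Wt1 had 2 reads with retinoic acid and 8 with vehicle. The summed level of each list was 15.39 to 18.18 CPM with retinoic acid and 11.99 to 15.01 CPM with vehicle for 10 endothelial genes. It was 75.7 to 79.1 CPM with retinoic acid and 63.6 to 66.1 CPM with vehicle for 12 immune genes. It was 19.3 to 22.5 CPM with retinoic acid and 15.2 to 19.4 CPM with vehicle for 8 mesothelial genes. The groups did not overlap in the endothelial and immune sums and overlapped in the mesothelial one. Esam was the largest term of the endothelial sum and Cd14 of the immune sum. The other tested endothelial genes were not called. Their log2 fold changes were −0.60 for Pecam1, −0.43 for Vwf, −0.47 for Eng and 0.18 for Plvap. Whether the separate sums reflect more cells of these kinds was not tested. Of 4 tested immune genes Cd14 and Cd68 were higher (50%, against 5.37% of all rows), of 5 endothelial genes Esam was higher (20%), and of 3 mesothelial genes Upk1b was higher and Cav1 lower. The part of such cells in the values of Ly6a and Msln was not tested. Cd68 lost its call without retinoic acid library 1 (adjusted p = 0.107 in edgeR), retinoic acid library 2 (0.0882), vehicle library 1 (0.0913) or vehicle library 2 (0.0687). The immune count was 1 higher gene without the first 3 of these.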

How the data were processed

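The data come from 1 series-wide table of raw read counts, 1 column per library, deposited by the authors together with their own p-value, adjusted p-value (FDR) and log2 fold change, which come from DESeq, per the file headers. Libraries were directional and polyA-selected, per the labels' protocols, and the submitters' processing notes name mm10 as the build. The aligner, annotation and strand setting, and how reads matching several places were handled, were not given in the sources used here. Replicates of a group differed by a chi-square of 3.96 to 10.5 per row, where sampling noise gives about 1. Each library was counted as a replicate, although this spread may be technical and does not show separate cultures or mice.

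Counts were fitted with edgeR 4.0.16 in R 4.3.3: filterByExpr (13700 rows left), TMM factors of 0.978 to 1.023, glmQLFit and glmQLFTest with treatment as the only term, two-sided, Benjamini-Hochberg adjustment over all rows, threshold 0.05. The SE is the log2 fold change divided by the root of F. Lengths per kilobase are unions of exons of protein-coding transcripts in GENCODE (GRCm38). Alternatives were DESeq2 1.42.0, limma 3.58.1 (voom), other scaling and filters, a replicate block, leaving out each library and leaving out library 3 of both groups. In simulated counts of the 13700 rows, 77% of genes changed 1.5-fold and 92% of those changed 2-fold were called, and 6.63% of calls were unchanged genes. Each fold was given to 100 genes, and the simulated libraries shared no differences by library number. Smaller folds were not simulated. Ly6a, Clu, S100a6 and Anxa1 changed less than 1.5-fold, so these percentages do not cover them.

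The 7 members and all gene lists were chosen with earlier results of these data known. Genes named are the members, a set of 9 markers, up to 8 called genes in each direction of the fetal and regenerating list and up to 4 of each other list by smallest p, and the 3 genes most like each member. A few genes that this rule takes are not reported here. Others were named to show the levels of listed genes, after their values were seen. Of the lists used as checks, epithelial identity had 2 of 12 tested members higher (16.7%, against 5.37% of all rows) and 1 lower, retinoic acid response 4 of 8 higher (50%) and 0 lower, and the gastric and mesenchymal lists 0 of 2 called each (also 0 by DESeq2 and limma-voom; 0 and 1 at an unadjusted p under 0.05 in edgeR). The lower count of the retinoic acid response list was 1 without vehicle library 3, with no filter or with the block. The gastric list had 1 higher gene without retinoic acid library 3, vehicle library 1 or library 3 of both groups, or with no filter.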

Additional observations from a re-analysis of the deposited data

How the results depend on the processing

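Of 91 values of the 7 markers under 13 alternatives, 85 kept direction and call, 5 lost a call and 1 gained one, and none changed sign. The cause of these changes was not tested. Leaving out 1 library gave log2 fold changes of 0.65 to 1.00 for Il1rn, 0.36 to 0.52 for Ly6a, 0.33 to 0.48 for Clu, 0.09 to 0.22 for Anxa3, −0.21 to −0.07 for Msln, −0.42 to −0.24 for S100a6 and −0.55 to −0.40 for Anxa1, 2 to 3 higher and 1 to 2 lower markers, 443 to 978 higher and 289 to 787 lower genes over all rows, and 1 to 3 lower genes of the fetal and regenerating list. With library 3 of both groups left out, Msln was called (log2 fold change −0.27) and 4 genes of that list were lower. Replicate numbers were shared between groups. Same-numbered libraries deviated together with r = 0.13, 0.10 and 0.26, and libraries of different numbers with r from −0.17 to 0.06. Each library thus correlated best with its own number. These correlations do not settle whether the numbers pair the libraries. The main test took the libraries as unpaired. A replicate block gave 1224 higher and 1052 lower genes and changed no call of a marker. Among the other named genes, Gja1 and Ccn1 changed sign near 0: Gja1 had −0.29 to 0.26 with 1 library left out and −0.32 with library 3 of both groups left out, and Ccn1 had −0.13 to 0.13 and −0.001 with limma-voom. Il33 was called without a filter on low counts (adjusted p = 0.0238) and with the replicate block (0.0379). In the authors' deposited table the same 5 markers pass an FDR of 0.05 with the same signs.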
